A study of Mus musculus with 6 samples.

Results

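The 10 genes described here encode the small GTPases Rap1a and Rap1b, the Rap1 effectors Rassf5 and Apbb1ip, and the integrin adaptors Tln1, Fermt3, Parvg, Vcl, Pxn and Zyx. They were picked by gene symbol from 47729 genes, by a rule that uses no measured value but was written with earlier results of these data known, and each symbol matched 1 row in every library. The samples were activated CD8+ T cells from mouse spleen, the cytotoxic class of T lymphocyte. They were treated for 24 h with 2 µM blebbistatin, an inhibitor of the myosin II motor, which pulls on actin filaments (3 libraries), or with a vehicle whose composition the labels do not give (3 libraries). Strain, age, sex and the activating stimulus are not given in the labels either, and nothing there says that the replicates came from separate animals or cultures, so the spread behind every p-value is that of these samples and may be technical. The question of the series was what chemical interference with the cytoskeleton does to these cells.

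Integrins on a resting T cell bind their ligands weakly. Signals from the T cell receptor or from chemokine receptors load Rap1 with GTP, and Rap1 then recruits talin and kindlin to the integrin's short cytoplasmic tail, which shifts the receptor to a state of high affinity. Once the integrin is bound, talin, vinculin, paxillin, parvin and zyxin tie it to actin filaments, and the pull of myosin II on those filaments strengthens the link. In T cells this machinery serves above all LFA-1, the integrin made of the Itgal and Itgb2 chains, which holds a T cell to its target.

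Between 18466219 and 19929460 fragments are implied per library. Gene levels are given in TPM, in which every library sums to 1000000 after correction for transcript length, so that levels of different genes can be set side by side. Every one of 8 T cell and CD8 markers was measured above 1 TPM, and they summed to 4516 to 4691 TPM in blebbistatin libraries and 4721 to 4768 TPM in vehicle libraries. Markers of B cells, myeloid cells, neutrophils and stroma summed to 552 to 582, 72.7 to 100.4, 1.005 to 1.14 and 21.2 to 27.5 TPM in blebbistatin libraries, against 546 to 567, 91.1 to 93.3, 1.51 to 1.97 and 18.02 to 21.3 TPM in vehicle libraries. Most of these sums came from Ighm, Cst3, Mpo and Pecam1. By the test described below, Thy1 fell among the T cell markers, H2-Eb1 and Igkc rose among 6 B cell markers tested, and none of the 3 myeloid, 1 neutrophil and 1 stromal markers tested passed. Of the B cell receptor's signalling chains, Cd79b had 14.5, 12.9 and 16.5 TPM in blebbistatin libraries, against 9.69, 13.9 and 11.02 TPM in vehicle libraries. Cd79a, below the minimum of 1 TPM and not tested, had 1.11, 0.944 and 1.59 TPM in blebbistatin libraries, against 0.363, 0.419 and 0.425 TPM in vehicle libraries, so Cd79a did not overlap between the groups and Cd79b did. S100a9 and Ly6g, which mark neutrophils, and Col3a1 and Pdgfra, which mark stroma, were listed at 0 in all 6 libraries. On the first principal component of all genes tested, which held 42.8% of the variance, the scores were 30.5, 0.23 and 14.5 for blebbistatin 1, 2 and 3, against -15.5, -13.4 and -16.4 for vehicle 1, 2 and 3. Blebbistatin 2 thus stood nearest to the vehicle libraries, and results are given without it where that matters.

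None of the 10 genes passed the test between blebbistatin and vehicle. All 10 were tested, and 0 reached an adjusted p below 0.05 by limma with Benjamini-Hochberg adjustment over 13372 genes, where 1.82% of all genes tested did, 187 that rose and 57 that fell (130 and 67 with median-ratio scaling). At an unadjusted p below 0.05 the count was 1 of 10, Rap1a, against 22.9% of all genes. The 2 groups did not overlap in 1 of the 10, again Rap1a, against 31.0% of all genes. Blebbistatin was higher in that gene, against 18.0% of all genes with that order. By log2 fold change 6 members lay above 0 and 4 below it. The median of the 10 was 0.04, beside 0.03 over all genes tested.

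Promoter sequences of 3 members are shown because these genes stand at the ends of the range: Vcl, at the lowest level of the 10, Zyx, with the difference furthest from 0, and Rap1b, with the highest level. Each runs 5′ to 3′ along the gene's strand, from 250 bases before to 50 bases after the start of transcription, taken from RefSeq on GRCm38.p6. They lie at chr14:20929148-20929447 on the plus strand, chr6:42349578-42349877 on the plus strand and chr10:117845925-117846224 on the minus strand. The gene positions given below start Zyx at 42349630, so by them its window lies largely inside the gene. Capitals mark the CArG box, the element bound by the actin-regulated factor SRF, and the GC box GGGCGG on either strand.
Vcl: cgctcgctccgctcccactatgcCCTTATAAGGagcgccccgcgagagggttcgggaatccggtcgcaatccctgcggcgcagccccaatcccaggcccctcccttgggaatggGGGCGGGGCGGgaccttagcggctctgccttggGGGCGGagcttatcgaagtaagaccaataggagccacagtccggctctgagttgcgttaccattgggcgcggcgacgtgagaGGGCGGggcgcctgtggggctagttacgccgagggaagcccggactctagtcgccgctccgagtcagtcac
Zyx: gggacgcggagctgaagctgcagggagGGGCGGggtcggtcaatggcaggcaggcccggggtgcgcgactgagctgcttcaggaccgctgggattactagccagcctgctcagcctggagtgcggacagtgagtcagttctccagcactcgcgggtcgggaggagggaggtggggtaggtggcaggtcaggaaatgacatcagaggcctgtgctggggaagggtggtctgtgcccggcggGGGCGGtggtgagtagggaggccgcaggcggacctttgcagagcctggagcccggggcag
Rap1b: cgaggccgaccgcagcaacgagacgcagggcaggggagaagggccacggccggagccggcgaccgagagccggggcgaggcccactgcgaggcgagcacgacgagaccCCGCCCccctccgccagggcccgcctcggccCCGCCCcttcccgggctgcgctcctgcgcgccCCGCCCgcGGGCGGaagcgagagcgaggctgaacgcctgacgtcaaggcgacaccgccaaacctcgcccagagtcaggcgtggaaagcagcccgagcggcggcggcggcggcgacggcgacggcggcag

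RefSeq promoters were matched for 8 of the 10 members, with 9 promoters in all, since Parvg has 2. A CArG box was found in 1 of these 9 promoters, that of Vcl, where it starts at base -227 and reads CCTTATAAGG on both strands, and in 1.63% of 32851 promoters of the same length. The GC box was found in 5 of the 9, those of Rassf5, Zyx, Rap1b, Vcl and 1 of Parvg, and in 35.7% of all promoters. No CArG box overlapped a GC box. These matches describe the letters of the windows and say nothing of binding in these cells.

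Rap1a and Rap1b, near-identical small GTPases that switch integrins on, were both abundant. How reads that match both were divided is not given in the sources used here, so the level of each is uncertain to that extent. Rap1a (ENSMUSG00000068798, mm10 chromosome 3, 105727267 to 105801336, minus strand, protein-coding like the other 9) had 237, 201 and 217 TPM in blebbistatin libraries 1, 2 and 3, against 191, 192 and 195 TPM in vehicle libraries 1, 2 and 3. All 3 blebbistatin libraries lay above all 3 vehicle libraries. The means were 219 ± 17.9 and 192 ± 2.03 TPM (SD, n = 3 each), a log2 fold change of 0.18 (SE 0.07) on the log2(TPM + 1) scale, or 13.4% with a 95% interval of 1.81% to 26.2%, and it did not pass (limma, Benjamini-Hochberg adjusted p = 0.18). Without blebbistatin 2 the log2 fold change was 0.24 and the adjusted p was 0.051, and without blebbistatin 1 they were 0.12 and 0.24.

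Rap1b (ENSMUSG00000052681, chromosome 10, 117814471 to 117845935, minus strand) had the highest level of the 10 in both groups. It stood at 398, 333 and 367 TPM in blebbistatin libraries, against 336, 338 and 338 TPM in vehicle libraries. Blebbistatin 1 and 3 were above every vehicle library and blebbistatin 2 was below every one of them. The means were 366 ± 32.4 and 337 ± 1.11 TPM, and the log2 fold change of 0.11 (SE 0.07, 95% interval -0.05 to 0.27) did not pass (limma, Benjamini-Hochberg adjusted p = 0.35). Without blebbistatin 2 it was 0.18 with an adjusted p of 0.080, and without blebbistatin 1 it was 0.05 with an adjusted p of 0.60.

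Rassf5, also called RAPL, and Apbb1ip, also called RIAM, are effectors that carry the Rap1 signal to LFA-1 and to talin. Rassf5 (ENSMUSG00000026430, chromosome 1, 131176410 to 131245258, minus strand) had 141, 140 and 137 TPM in blebbistatin libraries, against 141, 130 and 136 TPM in vehicle libraries, and the ranges overlapped. Its 95% interval ran from -5.50% to 11.4%. Apbb1ip (ENSMUSG00000026786, chromosome 2, 22774094 to 22875653, plus strand) had 77.7, 68.0 and 71.96 TPM in blebbistatin libraries, against 71.2, 67.1 and 69.8 TPM in vehicle libraries. Blebbistatin 1 and 3 lay above the vehicle libraries and blebbistatin 2 inside their range, and the 95% interval ran from -6.22% to 16.2%. Its log2 fold change was 0.06, with a range of 0.01 (without blebbistatin 1) to 0.11 (without blebbistatin 2). The sign of Rassf5 changed with median-ratio scaling, with a log2 fold change of -0.0053 in place of 0.04, so no direction can be given for it.

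**Figure D1:**
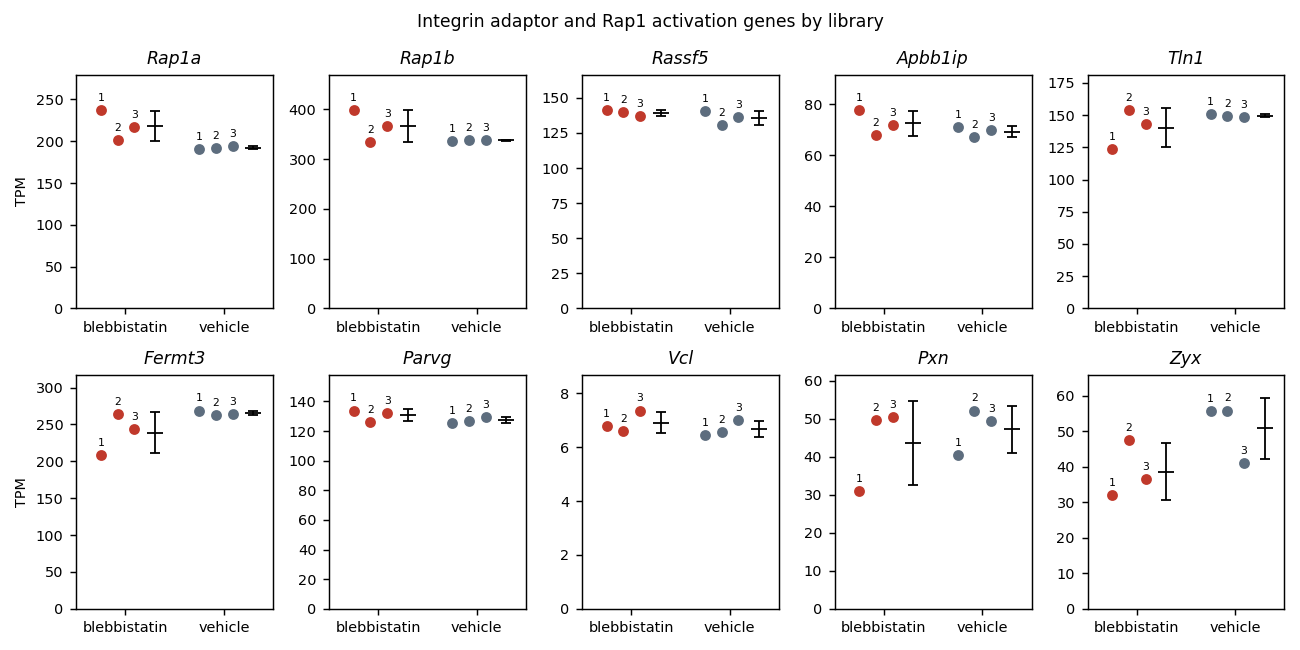
TPM of the 10 genes in each library, numbered by replicate, with blebbistatin left of vehicle and the mean ± SD beside each group (n = 3). The axes start at 0 and differ between panels. Vehicle libraries lie close together for Rap1a, Rap1b, Tln1 and Fermt3, while blebbistatin libraries spread, with blebbistatin 1 at one end.

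Tln1 and Fermt3 encode talin 1 and kindlin 3, which bind the integrin beta chain and complete its activation, and kindlin 3 is the form made by blood cells. Tln1 (ENSMUSG00000028465, chromosome 4, 43531519 to 43562691, minus strand) had 124, 154 and 143 TPM in blebbistatin libraries, against 150.5, 149 and 148 TPM in vehicle libraries. Blebbistatin 1 and 3 lay below the vehicle libraries and blebbistatin 2 above them. The means of 140.2 ± 15.3 and 149 ± 1.13 TPM gave a log2 fold change of -0.10 (SE 0.08, limma, Benjamini-Hochberg adjusted p = 0.50), which was -0.0087 without blebbistatin 1 and -0.16 without blebbistatin 2. Fermt3 (ENSMUSG00000024965, chromosome 19, 6998958 to 7019469, minus strand) had 209, 264 and 244 TPM in blebbistatin libraries, against 269, 263 and 264 TPM in vehicle libraries. Blebbistatin 2 lay inside the vehicle range and the other blebbistatin libraries below it. The means were 239 ± 27.9 and 265 ± 3.13 TPM, a log2 fold change of -0.16 (SE 0.08, 95% interval -0.36 to 0.04) that did not pass (limma, Benjamini-Hochberg adjusted p = 0.30). Leaving out blebbistatin 1 brought the log2 fold change of Fermt3 to -0.07 and leaving out blebbistatin 2 to -0.23.

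Parvg encodes gamma-parvin, the blood cell form of the parvins, which join integrin-linked kinase to actin. It (ENSMUSG00000022439, chromosome 15, 84324026 to 84342978, plus strand) had 134, 126 and 132 TPM in blebbistatin libraries, against 125, 127 and 129 TPM in vehicle libraries. The groups overlapped and the 95% interval ran from -5.09% to 11.4%, the narrowest of the 10 on the log2 scale. With median-ratio scaling its log2 fold change was -0.0024 in place of 0.04.

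Vcl, Pxn and Zyx encode vinculin, paxillin and zyxin, proteins of the actin-linked layer of adhesions that respond to force in adherent cells. Vcl (ENSMUSG00000021823, chromosome 14, 20929433 to 21033673, plus strand) had the lowest level of the 10, at 6.79, 6.60 and 7.37 TPM in blebbistatin libraries, against 6.45, 6.55 and 7.01 TPM in vehicle libraries. The groups overlapped, with a log2 fold change of 0.05 (SE 0.09), or -0.01 with quantile scaling. Exons of Ap3m1 on the other strand overlap 25.5% of the exon length of Vcl, and the library kit does not mark strand, so its level is uncertain to that extent. Between 57.2 and 67.9 fragments per kb of transcript lay behind these values of Vcl, against 283 or more for each of the other 9 genes.

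Zyx had the log2 fold change furthest from 0 of the 10. It (ENSMUSG00000029860, chromosome 6, 42349630 to 42360213, plus strand) stood at 31.9, 47.5 and 36.5 TPM in blebbistatin libraries, against 55.7, 55.8 and 40.9 TPM in vehicle libraries. The groups overlapped through vehicle 3, which lay below blebbistatin 2. The means were 38.6 ± 8.01 and 50.8 ± 8.57 TPM, a log2 fold change of -0.39 (SE 0.17, 95% interval -0.80 to 0.01) that did not pass (limma, Benjamini-Hochberg adjusted p = 0.23). It was -0.55 without blebbistatin 2 and -0.54 without vehicle 3, with adjusted p of 0.073 and 0.23. It was -0.27 without blebbistatin 1 and -0.32 without vehicle 1 or vehicle 2, with adjusted p of 0.42, 0.45 and 0.44. Pxn (ENSMUSG00000029528, chromosome 5, 115506676 to 115555987, plus strand) had 30.9, 49.6 and 50.4 TPM in blebbistatin libraries, against 40.3, 52.2 and 49.4 TPM in vehicle libraries. Blebbistatin 1 alone lay below the vehicle libraries, and the log2 fold change of -0.14 (SE 0.19) became 0.09 without it.

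The deposited measures of level differed most for Pxn and Zyx. The deposited coverage, the mean read depth over a gene, was 7.44% to 8.92% of the depth that the FPKM of Pxn implies and 26.6% to 32.4% for Zyx, while it was 100% for Vcl, Fermt3 and Rap1b. The annotation lists 14 transcripts for Pxn and 11 for Zyx. On coverage put on the TPM scale, an alternative chosen after the data were seen, the log2 fold change was -0.01 for Pxn and -0.40 for Zyx (limma, Benjamini-Hochberg adjusted p = 0.15).

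**Figure D2:**
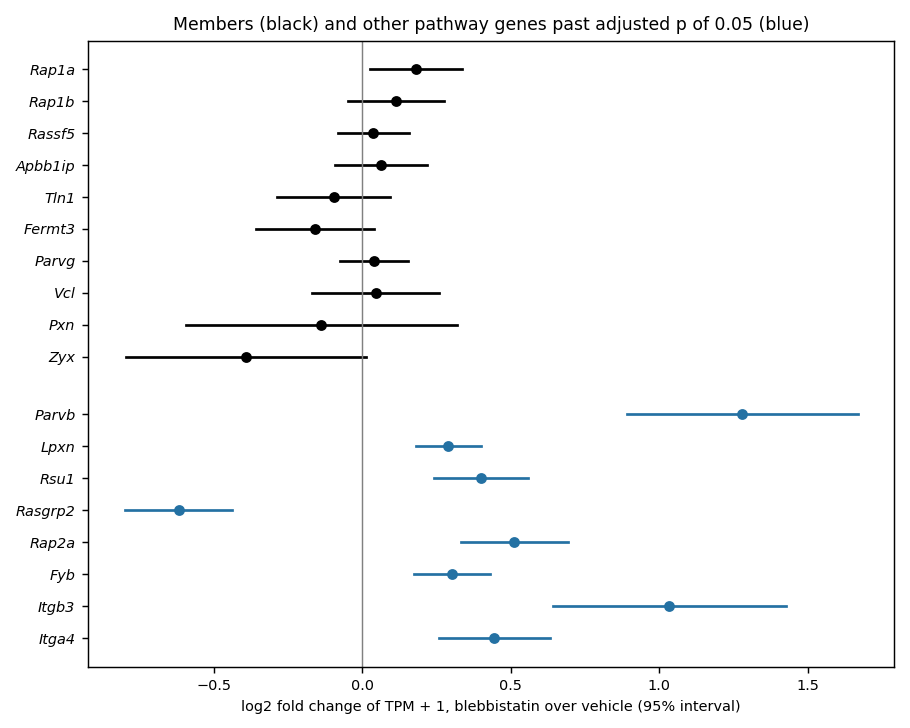
Log2 fold change of TPM + 1, blebbistatin over vehicle, with its 95% interval from limma (not adjusted for the number of genes), for the 10 genes in black and for the 8 other genes of the pathway lists that passed in blue. The intervals of 9 of the 10 include 0, that of Rap1a starts at 0.03, and the intervals of Zyx and Pxn are the widest.

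The order of levels was close to the same in both groups. In blebbistatin libraries Rap1b was followed by Fermt3, Rap1a, Tln1, Rassf5, Parvg, Apbb1ip, Pxn, Zyx and Vcl. Among neighbours in this order the ranges of Fermt3 and Rap1a, of Tln1 and Rassf5, and of Pxn and Zyx overlapped. Tln1, at 123.6 to 153.7 TPM, also overlapped Parvg, at 126.2 to 133.8 TPM. In vehicle libraries the order was the same but for Zyx, at 50.8 TPM, before Pxn, at 47.3 TPM, and that pair of neighbours was the only one to overlap. In level Rap1b stood above 97.2% of all genes tested, Fermt3 above 95.8%, Rap1a above 94.6% and Vcl above 28.6%.

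The blebbistatin libraries differed from one another in the same order for most of the 10 genes. Blebbistatin 1 lay furthest from the vehicle mean in 9 of 10, all but Vcl, where it was furthest in 53.7% of all genes tested. Blebbistatin 2 lay nearest to it in 9 of 10, all but Rassf5, against 46.9% of all genes. For Rap1a the deviations in log2(TPM + 1) were 0.30, 0.07 and 0.18 in blebbistatin 1, 2 and 3, and for Fermt3 they were -0.34, -0.01 and -0.12. Blebbistatin 1 lay inside the vehicle range for 1 of the 10 genes, blebbistatin 2 for 7 and blebbistatin 3 for 2, against 24.6%, 37.1% and 32.1% of all genes tested for those libraries. The libraries stand in that order on the first principal component of all genes too, and the part of that shared axis in these deviations was not tested.

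**Figure D3:**
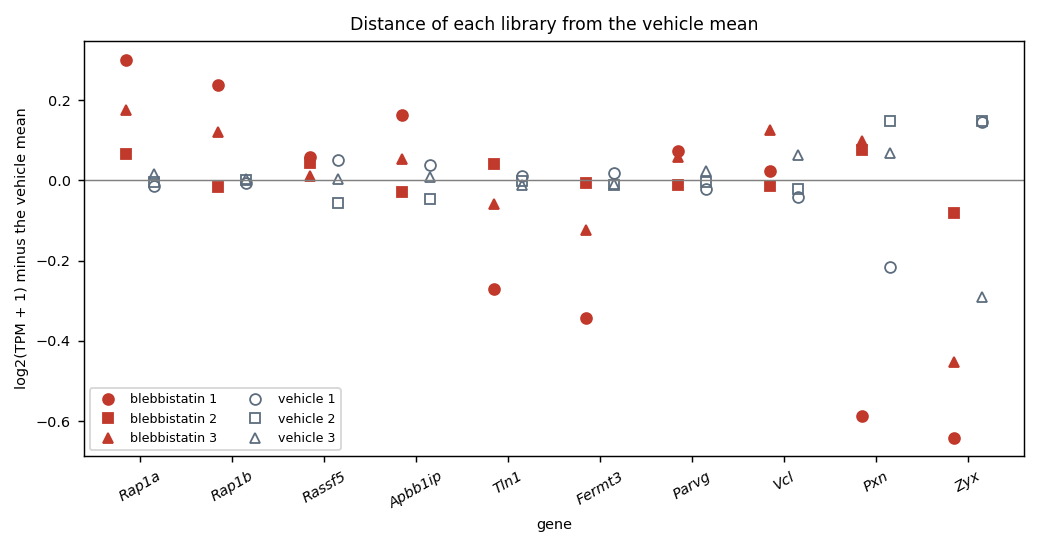
Difference of log2(TPM + 1) from the vehicle mean for each gene and library, with blebbistatin as filled red symbols left of vehicle as open grey symbols. Blebbistatin 1 (circles) lies furthest from 0 for 9 of 10 genes and blebbistatin 2 (squares) nearest for 9 of 10.

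In each family the blood cell or main form held most of the summed TPM, with the smallest part for Rap1b. Rap1b made up 62.7%, 62.3% and 62.8% of the summed TPM of Rap1a and Rap1b in blebbistatin libraries, against 63.8%, 63.8% and 63.5% in vehicle libraries. The groups did not overlap, and the difference of means was -1.09 percentage points (exact two-sided permutation test, p = 0.1, which is the smallest p that 3 against 3 allow, adjusted p = 0.2 over 4 shares). Tln1 held 99.2% to 99.4% of talin TPM in blebbistatin libraries and 99.3% to 99.6% in vehicle libraries. Fermt3 held 99.98% to 100% of kindlin TPM, as rounded, over all 6 libraries.

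Parvg held 97.5%, 97.1% and 98.1% of the summed parvin TPM in blebbistatin libraries, against 99.4%, 99.5% and 99.3% in vehicle libraries. These groups did not overlap either, with a difference of -1.85 percentage points (exact two-sided permutation test, p = 0.1, adjusted p = 0.2 over 4 shares). Parva was listed at 0 in all 6 libraries, so the rest of the share was Parvb, the beta-parvin neighbour of Parvg on chromosome 15 (84232043 to 84315688). Parvb had 3.45, 3.76 and 2.57 TPM in blebbistatin libraries, against 0.731, 0.574 and 0.939 TPM in vehicle libraries, and rose (log2 fold change 1.28, SE 0.17, limma, Benjamini-Hochberg adjusted p = 0.023). Between 5.17 and 35.5 fragments per kb of transcript lay behind these values of Parvb, the fewest of the genes named for a call.

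**Figure D4:**
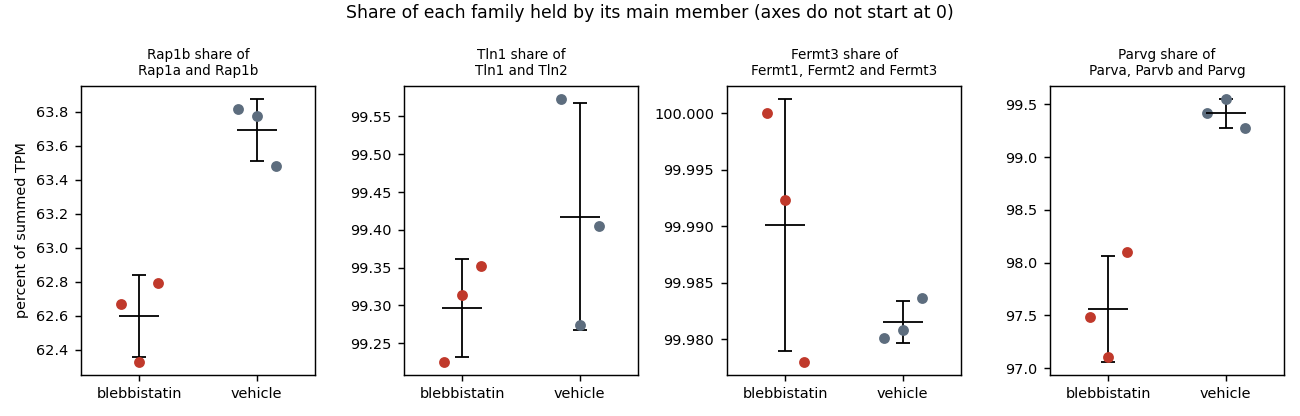
Percent of the summed TPM of each family held by Rap1b, Tln1, Fermt3 and Parvg, with points for libraries and bars for mean ± SD (n = 3), blebbistatin left of vehicle. The axes do not start at 0; the groups do not overlap for Rap1b and Parvg, where blebbistatin means are lower by differences of -1.09 and -1.85 percentage points.

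Of 38 other integrin adaptors and adhesion proteins 26 were tested, and 3 rose and 0 fell, beside 1.40% and 0.426% of all genes tested that rose and fell. The median log2 fold change of the 26 was -0.02. Besides Parvb these were Lpxn, leupaxin, a paxillin relative of blood cells, and Rsu1, a partner of the integrin-linked kinase complex. Lpxn had 139, 134 and 137 TPM in blebbistatin libraries, against 111, 111 and 113 TPM in vehicle libraries (log2 fold change 0.29, SE 0.05, limma, Benjamini-Hochberg adjusted p = 0.037). Rsu1 had 59.5, 56.5 and 55.8 TPM in blebbistatin libraries, against 42.8, 46.1 and 40.6 TPM in vehicle libraries (0.40, SE 0.07, limma, Benjamini-Hochberg adjusted p = 0.042), but on coverage it did not pass (adjusted p = 0.063). The members of the list with the highest levels did not pass. Vasp, an actin filament elongation factor, averaged 218 ± 18.9 TPM in blebbistatin libraries and 242 ± 8.47 TPM in vehicle libraries (SD, n = 3 each). Actn4, an actin crosslinker, averaged 199.7 ± 10.6 and 226 ± 2.49 TPM in those groups, and Flna, filamin A, 157 ± 3.50 and 184 ± 19.6 TPM. Without blebbistatin 2 Actn4 passed as lower (limma, Benjamini-Hochberg adjusted p = 0.039). All 3 blebbistatin libraries lay below all 3 vehicle libraries for Vasp, Actn4 and Flna. Over the 26 genes, blebbistatin lay below vehicle without overlap in 6 and above it in 9, against 13.0% and 18.0% of all genes tested.

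Of 36 other regulators and effectors of Rap1 and its relatives 32 were tested, and 2 rose and 1 fell, with a median log2 fold change of 0.09. Over all genes tested 1.40% rose and 0.426% fell. Blebbistatin lay above vehicle without overlap in 8 of the 32 and below it in 4, against 18.0% and 13.0% of all genes tested. Rasgrp2, also called CalDAG-GEFI, the calcium-responsive exchange factor that loads Rap1 with GTP, had 107, 129.7 and 120.3 TPM in blebbistatin libraries, against 179.6, 178 and 192 TPM in vehicle libraries. It fell by 0.62 on the log2 scale (SE 0.08, limma, Benjamini-Hochberg adjusted p = 0.022). Fyb, the adaptor ADAP that couples the T cell receptor to Rap1 and talin, had 192, 173 and 179.8 TPM in blebbistatin libraries, against 147, 146 and 149 TPM in vehicle libraries, and rose (0.30, SE 0.05, limma, Benjamini-Hochberg adjusted p = 0.046). Rap2a, a GTPase of the same family as Rap1, had 14.3, 13.7 and 13.1 TPM in blebbistatin libraries, against 9.30, 9.26 and 9.34 TPM in vehicle libraries, and rose (0.51, SE 0.08, limma, Benjamini-Hochberg adjusted p = 0.033). Skap1, the binding partner of Fyb, averaged 174 ± 2.79 TPM in blebbistatin libraries and 163 ± 8.46 TPM in vehicle libraries and did not pass. Coverage was 4.66% to 4.92% of the depth implied by the FPKM of Fyb and 10.6% to 12.3% of that of Rasgrp2, and on coverage the rise of Fyb did not pass (adjusted p = 0.104). With median-ratio scaling Lpxn (adjusted p = 0.052) and Fyb (adjusted p = 0.057) did not pass either.

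Among the integrin chains that these adaptors serve, Itgal and Itgb2 of LFA-1 stood at 222 ± 4.36 and 245.7 ± 7.72 TPM in blebbistatin libraries, against 217 ± 5.09 and 248 ± 2.78 TPM in vehicle libraries. Neither passed, and the groups overlapped for both. Of 10 integrin subunits tested 2 rose, Itgb3 and Itga4, and 0 fell, beside 1.40% and 0.426% of all genes tested. Blebbistatin lay above vehicle without overlap in 3 of the 10 and below it in 2, against 18.0% and 13.0% of all genes tested. Itgb3, the beta chain of the vitronectin and fibrinogen receptors, had 23.7, 21.8 and 24.0 TPM in blebbistatin libraries, against 14.6, 9.06 and 9.45 TPM in vehicle libraries (log2 fold change 1.03, SE 0.17; limma, Benjamini-Hochberg adjusted p = 0.038). Itga4, the alpha chain of VLA-4, had 29.7, 25.1 and 26.4 TPM in blebbistatin libraries, against 19.8, 19.6 and 19.3 TPM in vehicle libraries (limma, Benjamini-Hochberg adjusted p = 0.046; 0.053 with median-ratio scaling and 0.057 with quantile scaling). Itgb7, the beta chain with the highest level, averaged 250.9 ± 24.5 TPM in blebbistatin libraries and 305 ± 2.68 TPM in vehicle libraries and did not pass (limma, Benjamini-Hochberg adjusted p = 0.101). Without blebbistatin 2 Itgb7 passed as lower (limma, Benjamini-Hochberg adjusted p = 0.023). Itga6, another chain of the list, passed there as higher (limma, Benjamini-Hochberg adjusted p = 0.032). In that fit 496 genes rose and 594 fell over the whole table.

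Several of these genes are also expressed by platelets, among them Itgb3, which is itself one of the 12 platelet markers used here. The 12 markers summed to 141 to 156 TPM in blebbistatin libraries and 61.2 to 70.6 TPM in vehicle libraries. Of the 7 tested 5 rose, beside 1.40% of all genes tested. Pf4, a platelet chemokine, had 53.8, 70.0 and 68.9 TPM in blebbistatin libraries, against 28.8, 32.4 and 28.5 TPM in vehicle libraries. The part of platelet RNA in the rises of Parvb and Itgb3 was not tested, and in bulk RNA more cells of a type and more RNA per cell cannot be told apart. Itga2b, the partner of Itgb3 in platelets and a marker here, rose, with means of 12.2 ± 1.37 TPM in blebbistatin libraries and 7.81 ± 0.557 TPM in vehicle libraries. Of Rap1b, Fermt3, Tln1 and Rasgrp2, which platelets also express, Rap1b had a higher mean in blebbistatin libraries and Fermt3 and Tln1 lower ones. None of those passed the test, while Rasgrp2 fell. No platelet level of these genes was measured here, and the part of platelet RNA in them was not tested.

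By the likeness of their deviations over the 6 libraries, the genes closest to Rap1a among 8145 genes of at least 10 TPM were Gimap8, Qk and Arhgef6, with root-mean-square differences of 0.012, 0.014 and 0.016 in log2(TPM + 1). Among those closest to Rap1b were Cd3g and Rbbp4, with differences of 0.0075 and 0.0092. Cd3g, a chain of the T cell receptor complex, averaged 591 ± 52.3 TPM in blebbistatin libraries and 542 ± 2.64 TPM in vehicle libraries and did not pass (limma, Benjamini-Hochberg adjusted p = 0.32).

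The calls of the 8 pathway genes depended on the set of libraries, as did those over all genes. Without blebbistatin 3, or without vehicle 2 or vehicle 3, none of the 8 passed by limma, and 3, 11 and 7 genes passed over the whole table. Without vehicle 1 Itgb3 alone passed, with 13 over the whole table, and without blebbistatin 1 Rasgrp2 alone, with 120. Without blebbistatin 2 all 8 passed and 0 of the 10 members, with 1090 of 13372 genes over the whole table. The 8 were named because they passed with all 6 libraries, so their count cannot be set against that of the members. Over the libraries left out in turn, adjusted p of Rasgrp2 ran from 0.012 to 0.104, of Parvb from 0.023 to 0.104, of Lpxn from 0.023 to 0.16, of Rsu1 from 0.034 to 0.16, of Rap2a from 0.030 to 0.14, of Fyb from 0.023 to 0.17, of Itga4 from 0.025 to 0.17 and of Itgb3 from 0.028 to 0.15. With no minimum level none of the 8 passed, at adjusted p from 0.053 to 0.095, and without the variance trend Lpxn, Rsu1, Fyb, Itgb3 and Itga4 did not.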

How the data were processed

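RNA was measured in 6 libraries of activated CD8+ T cells. Per the labels' protocols, RNA came from a TRIzol extraction, and a TruSeq kit (of a kind that does not mark strand) and a NovaSeq instrument produced the reads. The submitters' processing notes name DESeq2 1.22.2, StringTie 1.3.4, HISAT2 2.1.0 and the build mm10, without their roles or settings. The authors deposited TPM (summing to 1000000 in each library), FPKM and coverage, an unscaled read depth signal, per gene. Implied fragments came from dividing coverage by FPKM (5.54 to 5.98), taking the commonest value of 300 aligned bases in genes of low level as 1 fragment.

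The test was limma 3.58.1 (R 4.3.3) on log2(TPM + 1), for genes averaging 1 TPM or more, with its variance trend on and a Benjamini-Hochberg threshold of 0.05. On simulated data for this comparison, with 13372 genes, 63% of 100 genes changed by 1.5-fold and 91% of 100 changed by 2-fold were recovered, with 9 false calls. The simulation changed only genes above a set level and drew independent noise with the same spread in both groups. It thus lacks the wider spread and the shared axis of the blebbistatin libraries, and its rates may not hold for these data. Paralog shares were compared by exact permutation. Annotation came from GENCODE M21 (GRCm38). The members and lists were chosen with earlier results of these data known. Named beyond the members were listed genes that passed, the 3 of highest level per list and the nearest patterns. Marker genes, Ilk and Itga6 were named after their values were seen. Some genes that these choices name are not reported here. Figures used matplotlib 3.10.9.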

Additional observations from a re-analysis of the deposited data

How the results depend on the processing

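In all 18 alternatives, of which 2 were chosen after seeing the data (coverage in place of TPM, and a table limited to protein-coding genes), 0 of the 10 members passed by limma. Of the members' log2 fold changes, 59 of 60 kept their sign over libraries left out and 117 of 120 over the other alternatives. Part of the 120 could not change. Other minimum levels, the variance settings, the replicate block and the protein-coding table refit the same values and leave a log2 fold change as it was. Only other constants added to TPM, FPKM, the scalings and coverage could move a sign. The exceptions were Vcl with quantile scaling (-0.012), Rassf5 (-0.0053) and Parvg (-0.0024) with median-ratio scaling, and Pxn without blebbistatin 1 (0.087, in a range of -0.256 to 0.087 over libraries left out). The count over all genes, 244, was 49 with no minimum level, 160 without the variance trend and 0 with the replicate block, and ran from 3 to 1090 over libraries left out. Its split of 187 higher and 57 lower became 130 and 67 with median-ratio scaling. The other adaptors, 3 called, numbered 0 with no minimum level, 1 without the trend, 0 with the replicate block and 0 to 4 over libraries left out, where Ilk was the 1 called without blebbistatin 1. The Rap1 regulators, 3 called, numbered 0 with no minimum level, 0 with the replicate block and 0 to 6 over libraries left out. Causes were not tested. Over libraries left out, differences of paralog shares ran from -1.20 to -0.96 percentage points for Rap1b, -0.19 to -0.04 for Tln1, 0.0037 to 0.0147 for Fermt3 and -2.12 to -1.62 for Parvg; the replicate block cannot move a difference of means and its smallest p is 0.25. Same-numbered libraries had correlations of deviations of 0.01, -0.04 and -0.03, beside -0.03 to 0.06 for the other pairs. No pairing by number is visible in these values, but they cannot show whether same-numbered libraries share an animal or culture. Depth limits Vcl the most.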
